A study of Homo sapiens with 4 samples.

Results

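Well-expressed antisense transcripts and the protein-coding genes on the opposite strand were compared between control and ALKBH5-depleted keratinocytes. Members were chosen by the gene_biotype antisense and a mean raw count of at least 50 over all 4 libraries, with SNHG host genes and a few well-known long noncoding RNAs left out by name. This gave 171 of the 5583 antisense genes listed, and 148 of them overlapped a protein-coding gene on the opposite strand. The selection used the mean over both groups, so the levels are a description, and a low transcript can pass the minimum through the group where it is high. In 15 members the mean of 1 group was under 50 counts, and of these LINC00893, AC011374.1, TMPO-AS1 and AC004943.2 were called different. HaCaT cells, an immortalized human keratinocyte line, wild type by their label, were transfected with 200 pmol of a control siRNA (siControl) or of siRNA against ALKBH5 (siALKBH5). Poly-A RNA was sequenced, and each group had 2 libraries, 1 of which is labelled as a replicate. It is not stated whether the libraries came from separate cultures, so the p-values measure only the spread between these samples, which may be technical.

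ALKBH5 is an eraser of N6-methyladenosine, a mark on messenger and long noncoding RNA that reader proteins recognize and that is linked to RNA decay, splicing and export. An antisense transcript is read from the strand opposite to a coding gene. Such RNAs often start from the same promoter region as their neighbour and run the other way, or start within the gene or beyond its end, and single examples are known to act on the neighbouring gene in cis while many have no known function.

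The knockdown target was lower in both siALKBH5 libraries. ALKBH5 was at 93.8 and 87.6 CPM (counts scaled to a common library size) in the siControl libraries and at 51.2 and 49.6 CPM in the siALKBH5 libraries, 55.6% of control (log2 fold change -0.85 ± 0.053 SE, edgeR adjusted p = 6.45e-15). Library totals were between 16017502 and 18837807 counts, and the 171 antisense genes took 0.145% to 0.160% of them. The 8 keratinocyte markers were all detected, with a summed level of 16442 to 16857 CPM in siControl and 22400 to 22476 CPM in siALKBH5. The sum rose through KRT5 (log2 fold change 0.68), KRT6A (0.63), KRT14 (0.22), SFN (0.22) and KRT16 (0.18). KRT17 (-0.076) and TP63 (-0.091) were called lower, and DSG3 (-0.040) was not called. TYR, COL1A2 and PDGFRA were at 0 counts in every library. The melanocyte list (2 of 4 genes above 3 counts) summed to 2.72 to 3.23 CPM in siControl and 3.16 to 3.89 CPM in siALKBH5, the fibroblast list (3 of 5) to 21.9 to 22.8 and 18.7 to 19.0 CPM, the immune list (2 of 4) to 2.42 to 3.11 and 3.83 to 4.23 CPM, and the endothelial list (1 of 2, CDH5) to 13.2 to 14.3 and 8.14 to 8.93 CPM. Within the fibroblast list, DCN fell by 1.25 and LUM by 1.08 on the log2 scale, and COL1A1 had -0.04 and was not called. The part of these shifts in the results was not tested, and in bulk RNA fewer cells of a type cannot be told apart from less RNA per cell.

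The library protocol does not mark strand, and the strand setting of the read counting is not given in the sources used here. Reads from an antisense gene and its partner therefore cannot be told apart where their exons overlap or where a spliced antisense exon lies in a partner intron. Of 415 antisense genes with at least 90% of their exonic bases inside exons of the other strand, 403 were at 0 counts in every library, whereas 2937 of all 5583 antisense genes had at least 1 count. None of the 171 members was of that kind, since their exonic overlap with the other strand was 7.53% in the median and 59.7% at most, and 49 members had none. Partner introns held at least 50% of the exonic bases of 52 members.

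To show where these transcripts begin, promoter windows of 300 bases, 250 before and 50 after the RefSeq start (GRCh38.p14), were examined. RefSeq windows were matched for 100 of the 171 members, and 62 of these lay within 50 bases of the start listed in the tables. Of these 62 windows, 24 (38.7%) held CCAAT on either strand, 44 (71.0%) held the GC box GGGCGG on either strand and 4 (6.45%) held TATAAA on either strand. Over all 35116 RefSeq windows the shares were 34.6%, 45.0% and 11.5%, and the median GC content was 58.7% against 67.0% in the 62 member windows. A match is only a match of letters. The following 4 windows belong to called members whose ratio to the partner also changed most among windows within 50 bases of the listed start and free of annotated coding and untranslated bases. LINC00893, whose ratio changed more than that of 3 of them, has its RefSeq start 1207 bases from the listed one and is not shown. They are written 5′ to 3′ on the strand of the antisense gene, with matches to the 3 motifs in capitals.
AC004943.2, chr16:72664883-72665182, plus strand: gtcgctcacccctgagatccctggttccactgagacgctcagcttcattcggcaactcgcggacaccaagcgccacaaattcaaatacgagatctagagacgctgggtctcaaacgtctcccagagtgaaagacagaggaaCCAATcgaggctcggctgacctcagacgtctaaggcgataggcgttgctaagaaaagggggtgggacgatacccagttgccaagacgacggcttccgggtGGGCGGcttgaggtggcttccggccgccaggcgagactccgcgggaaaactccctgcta
SLC25A25-AS1, chr9:128118685-128118984, minus strand: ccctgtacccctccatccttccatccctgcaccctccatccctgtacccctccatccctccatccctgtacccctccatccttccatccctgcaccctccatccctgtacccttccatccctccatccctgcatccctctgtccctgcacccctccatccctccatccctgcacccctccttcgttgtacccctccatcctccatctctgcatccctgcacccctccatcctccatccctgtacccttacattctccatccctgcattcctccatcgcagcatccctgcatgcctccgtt
UNC5B-AS1, chr10:71218179-71218478, minus strand: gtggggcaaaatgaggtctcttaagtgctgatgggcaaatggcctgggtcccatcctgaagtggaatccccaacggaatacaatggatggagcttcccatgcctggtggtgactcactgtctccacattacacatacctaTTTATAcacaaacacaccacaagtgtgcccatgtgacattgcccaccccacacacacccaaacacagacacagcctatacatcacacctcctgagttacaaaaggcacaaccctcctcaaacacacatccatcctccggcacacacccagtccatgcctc
PAXIP1-AS2, chr7:154928267-154928566, plus strand: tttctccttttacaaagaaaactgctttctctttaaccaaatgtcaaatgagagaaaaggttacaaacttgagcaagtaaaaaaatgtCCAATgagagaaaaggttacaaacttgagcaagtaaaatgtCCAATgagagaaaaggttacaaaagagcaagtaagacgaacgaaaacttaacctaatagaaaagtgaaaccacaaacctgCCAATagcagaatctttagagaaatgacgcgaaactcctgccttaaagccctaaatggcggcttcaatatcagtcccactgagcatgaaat
The window of AC004943.2, named ZFHX3-AS1 in RefSeq, held 1 CCAAT and 1 GC box, that of UNC5B-AS1 held 1 TATAAA on the reverse strand, and that of PAXIP1-AS2 held 3 CCAAT. SLC25A25-AS1 had no match.

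Levels per length were compared as reads per kilobase of exon, scaled as CPM (RPKM, the mean of 4 libraries, from the listed exon length). The 171 antisense genes spanned 0.250 to 102 RPKM with a median of 2.52, and their 146 distinct main partners had a median of 5.15 RPKM. The antisense gene was above its main partner in 53 of 148 pairs and under 10% of it in 22 pairs. These 148 pairs include 15 whose partner had too few reads to be tested. Members were selected for at least 50 counts, which favours a level above such a partner. Over the 133 pairs with both genes tested, the antisense gene was at 47.5% of its partner in the median. RPKM divides by the full listed exon length. The part of overlapping exons and of partner intron reads in these levels was not tested. UNC5B-AS1, transcribed across an intron of the netrin receptor gene UNC5B, was at 102 RPKM against 58.7 RPKM for UNC5B. The next levels were 23.6 RPKM for AC099850.3, 22.5 for AC010503.4, 22.1 for AL441992.1, 17.3 for FGD5-AS1, 15.4 for AC005288.1, 15.3 for GATA2-AS1 and 14.7 for HOXC13-AS. Of these 8 genes, UNC5B-AS1 fell and AC099850.3 rose, and the other 6 did not pass the test. FGD5-AS1, a long noncoding RNA studied in tumours, had the most reads of all members (1437, 1652, 1686 and 1377), whereas its main partner FGD5 had 1 read in 1 library and none in the rest. FGD5-AS1 also overlaps NR2C2 over 841 bases. NR2C2 had 761 and 867 reads in siControl and 819 and 659 in siALKBH5 (log2 fold change -0.18, edgeR adjusted p = 0.0257).

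**Figure D1:**
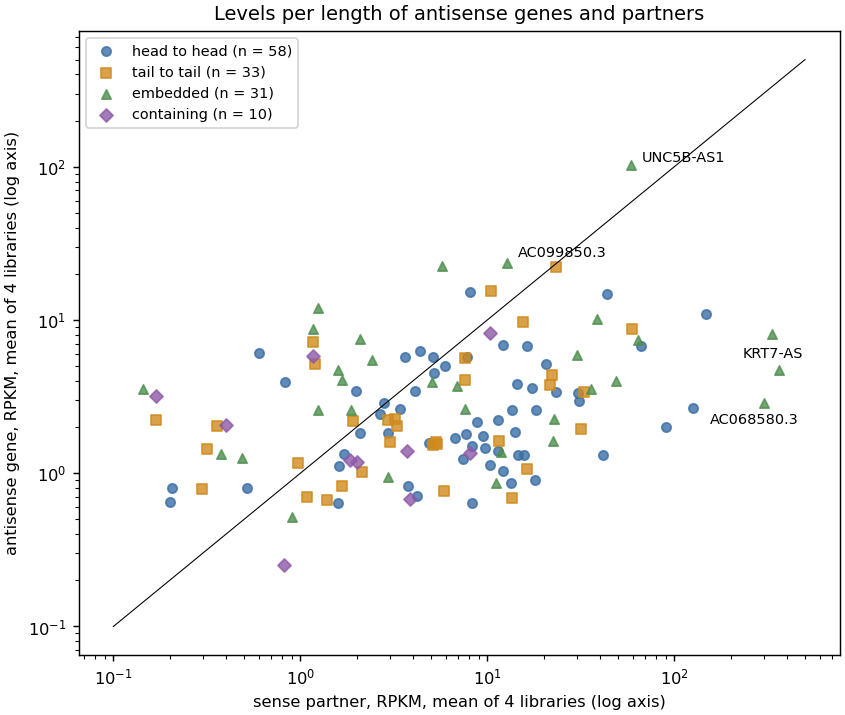
Mean RPKM over the 4 libraries of each antisense gene (vertical, log axis) against its main sense partner (horizontal, log axis) for 132 of the 133 pairs with both genes tested, with the line of equality. UNC5B-AS1 stands at 102 RPKM above the line, and KRT7-AS and AC068580.3 lie far below partners at 363 and 301 RPKM.

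After ALKBH5 knockdown, fewer antisense transcripts rose than fell. All 171 members passed the expression filter, and at an adjusted p under 0.05 in the quasi-likelihood test of edgeR, 11 members were higher and 26 lower in siALKBH5. Over all 15075 genes tested, percent called was 19.3% higher and 17.3% lower, and in the members 6.43% and 15.2%. The median log2 fold change was -0.08 for the members and -0.01 for all genes, and the sizes were small. Of the 171 members 1 (LINC00893, 0.585%) was called with a change of at least 1 on the log2 scale, against 2.92% of all genes tested. The 156 members with a mean of at least 50 counts in both groups held 9 called higher and 24 called lower. The 2 groups did not overlap in CPM in 64 members with siALKBH5 on the lower side and 33 on the higher side, which is 37.4% and 19.3% against 33.5% and 32.8% of all genes tested. DESeq2 called 11 of the same 37 members and no other, 5 higher and 6 lower, against 24.0% of all genes with an adjusted p. These were LINC00893, SLC25A25-AS1, UNC5B-AS1, PSMA3-AS1, SPINT1-AS1 and COLCA1 among the lower genes and GSEC, AL365181.3, LINC01137, AC099850.3 and AC004943.2 among the higher. With edgeR, 15 of the 37 members stayed called whichever library was left out, and 33 members were called without siControl replicate 1, 24 without siControl replicate 2, 33 without siALKBH5 replicate 1 and 36 without siALKBH5 replicate 2. With 2 libraries against 2, a permutation of the labels cannot give a two-sided p below 0.333.

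Because calls depend on the number of reads, the shares were also set side by side at like counts. Among genes with a mean of 50 to 100 counts, 6.38% of 94 members were higher and 8.51% lower, against 10.6% and 11.9% of all genes tested in that range. From 100 to 200 counts the shares were 6.67% of 45 members higher and 9 members lower, against 14.5% and 15.0%, and from 200 to 400 counts 4.17% and 20.8% of 24 members against 16.9% and 18.2%. Of the 8 members with more than 400 counts, 1 was higher and 4 were lower, against 24.0% and 23.0% of the genes from 400 to 1600 counts. No test of the list was made.

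**Figure D2:**
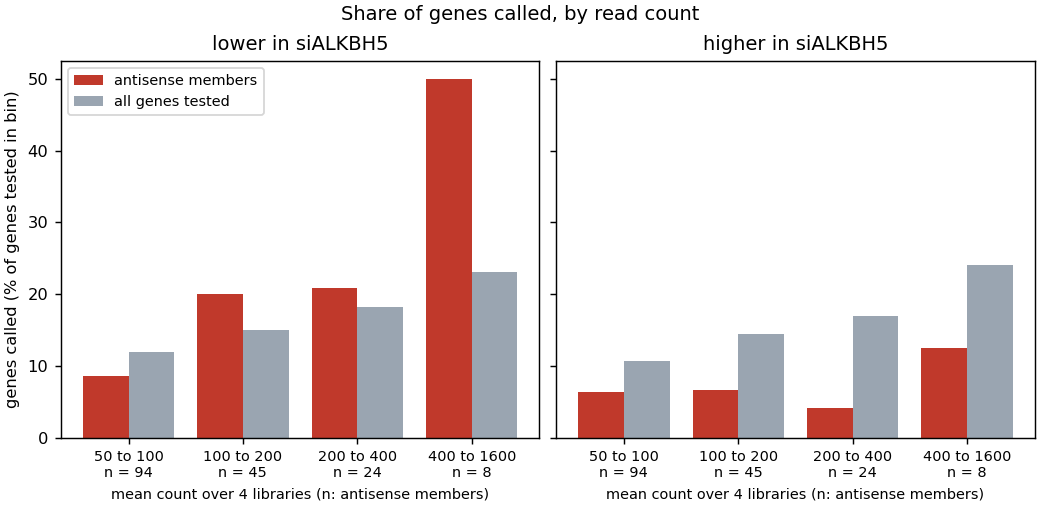
Percent of genes called lower (left) and higher (right) in siALKBH5 by mean raw count over the 4 libraries, for the antisense members (red, n under each bin) and all genes tested (grey). In the bin of 200 to 400 counts, 4.17% of members and 16.9% of all genes were called higher.

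Among the transcripts that fell, LINC00893, named EOLA1-DT in RefSeq, changed most. It had the lowest mean count of the 10 called members with the largest falls, 51.25, and passed the count minimum only through siControl. LINC00893 (chromosome X from 149527591 to 149540959) had 67 and 72 reads in siControl and 38 and 28 in siALKBH5, and was at 46.1% of control (log2 fold change -1.12 ± 0.25 SE, edgeR adjusted p = 0.00052). SLC25A25-AS1 (chromosome 9 from 128108581 to 128118693), which converges on the gene of a mitochondrial ATP carrier, had 142 and 137 reads in siControl and 109 and 63 in siALKBH5 (log2 fold change -0.75 ± 0.18, adjusted p = 0.00097). The siALKBH5 libraries of both genes lay apart from the controls, although those of SLC25A25-AS1 also differed from each other. UNC5B-AS1 (chromosome 10 from 71217224 to 71218228) was by far the most abundant transcript to fall, from 87.4 ± 2.58 CPM (SD, n = 2) to 56.7 ± 3.94 CPM, with 1437 and 1539 reads in siControl and 1112 and 888 in siALKBH5 (log2 fold change -0.62 ± 0.053, adjusted p = 1.63e-11). PSMA3-AS1 (chromosome 14 from 58265365 to 58298134), opposite a proteasome subunit gene, fell from 29.9 ± 2.14 to 20.5 ± 1.03 CPM (log2 fold change -0.55 ± 0.086, adjusted p = 3.83e-06). COLCA1, named for its place at a colorectal cancer risk locus, had 843 and 1038 reads in siControl and 833 and 749 in siALKBH5 (log2 fold change -0.29 ± 0.062, adjusted p = 0.000349). The groups did not overlap in any of these 5 genes, nor in any other called member that fell. All were chosen by their calls from these libraries, so the separation adds no further evidence. Of all genes tested, 33.5% were lower in both siALKBH5 libraries than in both siControl libraries.

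The remaining large falls had mean counts from 58.75 for AC011374.1 to 100.25 for AC068580.3 over the 4 libraries. AC011374.1, which has no overlapping coding gene, had 79 and 72 reads in siControl and 57 and 27 in siALKBH5 (log2 fold change -0.90 ± 0.25, edgeR adjusted p = 0.00499). It missed the threshold without siALKBH5 replicate 2, where the log2 fold change was -0.54. AL691432.2 had 98 and 93 reads in siControl against 68 and 55 (-0.68), AL359220.1 had 76 and 119 against 63 and 62 (-0.68), MAN1B1-DT had 106 and 91 against 70 and 60 (-0.65) and AC068580.3 had 127 and 112 against 89 and 73 (-0.61). These 4 calls were lost without 1 control library. That was siControl replicate 1 for AL691432.2 (-0.56), MAN1B1-DT (-0.45) and AC068580.3 (-0.43), and siControl replicate 2 for AL359220.1 (-0.40). MINCR, a transcript described as induced by MYC, had 93 and 115 reads in siControl and 88 and 54 in siALKBH5 (log2 fold change -0.60), and was not called without siControl replicate 2 (-0.52) or siALKBH5 replicate 2 (-0.37). AC074117.1 had 106 and 118 reads against 83 and 68 (-0.61) and stayed called without any 1 library. Of the genes in this paragraph, none passed DESeq2.

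Among the transcripts that rose, AC004943.2 changed most. AC004943.2 (chromosome 16 from 72665170 to 72791624) had 42 and 32 reads in siControl and 78 and 71 in siALKBH5, 195% of control (log2 fold change 0.96 ± 0.24, edgeR adjusted p = 0.00209), and missed the threshold without siControl replicate 2 (0.70). AC099850.3 (chromosome 17 from 59202677 to 59203829), embedded in PRR11, had 97 and 92 reads in siControl and 167 and 168 in siALKBH5 (log2 fold change 0.78 ± 0.15, adjusted p = 0.000125). LINC01137 (chromosome 1 from 37454879 to 37474411), whose start lies 141 bases from that of ZC3H12A on the other strand, had 101 and 109 reads against 204 and 159 (log2 fold change 0.74 ± 0.15, adjusted p = 0.000115). AL365181.3 was the rising transcript with the most reads, 377 and 418 in siControl and 630 and 521 in siALKBH5 (log2 fold change 0.49 ± 0.080, adjusted p = 7.6e-06). GSEC, an RNA known to bind DHX36 through a G-quadruplex, had 321 and 292 reads against 463 and 374 (0.40 ± 0.099, adjusted p = 0.00159), and was at 0.26 and not called without siControl replicate 2. In all 5 genes both siALKBH5 libraries were above both siControl libraries in CPM. These genes too were chosen by their calls, and 32.8% of all genes tested lay apart in that direction.

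The other rises described here had edgeR adjusted p from 0.00886 for UBL7-AS1 to 0.0465 for AC026471.1. TMPO-AS1 had 40 and 36 reads in siControl and 72 and 55 in siALKBH5 (log2 fold change 0.69 ± 0.25, edgeR adjusted p = 0.0277), RARA-AS1 had 63 and 67 against 116 and 81 (0.55), and MMP25-AS1 had 70 and 62 against 110 and 83 (0.50). Each of these was lost without siControl replicate 2 (0.54, 0.51 and 0.33) and without siALKBH5 replicate 1 (0.58, 0.37 and 0.38). UBL7-AS1 (75 and 80 reads against 135 and 103, log2 fold change 0.57) was lost without siALKBH5 replicate 1 (0.46). AC026471.1 (60 and 51 reads against 83 and 83, log2 fold change 0.54) was lost without siControl replicate 2 (0.34) and without siALKBH5 replicate 2 (0.45).

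**Figure D3:**
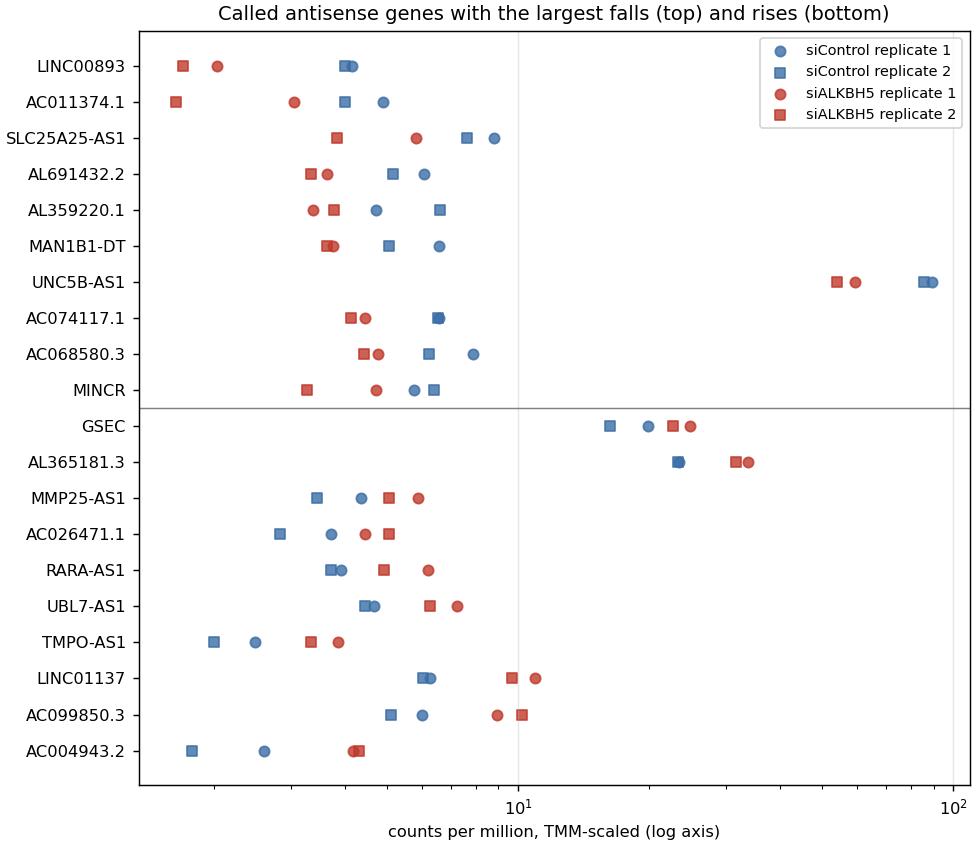
TMM-scaled CPM (log axis) in each library for the 10 called antisense genes with the largest falls (above the line) and the 10 with the largest rises (below it), siControl in blue and siALKBH5 in red, replicate 1 as circles and replicate 2 as squares. In each row the red and blue symbols do not overlap, in genes chosen by their calls from these libraries. UNC5B-AS1 lies far to the right at 54.0 to 89.2 CPM.

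Rises and falls were about equally frequent among the sense partners. Of 146 distinct main partners 131 were tested, and 24 were higher and 23 lower in siALKBH5, which is 18.3% and 17.6% against percent called of 19.3% and 17.3% over all genes. Their median log2 fold change was 0.02. In the 133 pairs with both genes tested, 15 had both called, 16 had the antisense gene alone, 33 the partner alone and 69 neither. The 15 pairs split into 8 in the same direction and 7 in opposite directions. Across the 133 pairs the log2 fold changes of antisense and partner had a Pearson r of 0.11 and a Spearman rho of 0.06, and 69 pairs had the same sign. These pairs share the same 4 libraries and scaling, and pairs are not independent replicates.

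**Figure D4:**
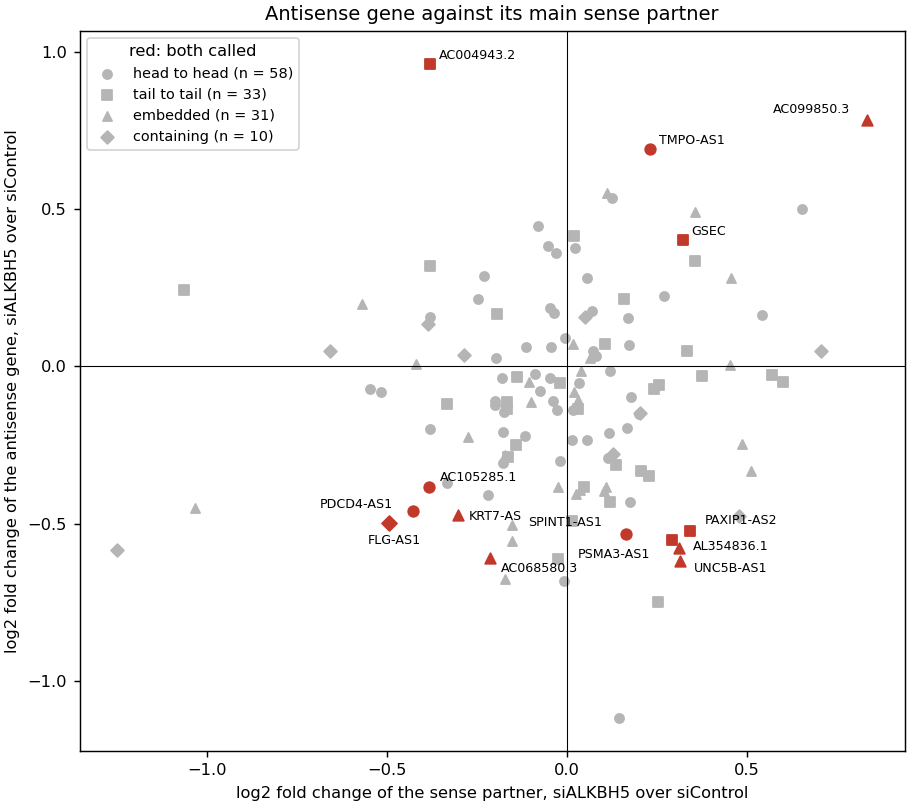
Log2 fold change (siALKBH5 over siControl) of each antisense gene against that of its main sense partner, 132 of the 133 pairs, with symbols for how the genes lie to each other and 14 of the 15 pairs with both genes called in red and named. Of the named pairs, 5 lie at the lower right, where the antisense gene fell and the partner rose, and AC004943.2 alone lies at the upper left.

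In 6 of the 133 pairs the antisense transcript fell while the coding gene rose, and 5 of them are described here. Both genes fell in 5 pairs, and 18.3% of all main partners tested were called higher. Whether opposite pairs were more frequent than the separate shares of calls would give was not tested. UNC5B was at 358 and 357 CPM in siControl and 442 and 448 CPM in siALKBH5 (log2 fold change 0.31 ± 0.025, edgeR adjusted p = 4.15e-12), opposite to UNC5B-AS1. PSMA3, a subunit of the proteasome core, rose by 0.29 ± 0.047 (adjusted p = 5.64e-06) with 1513 and 1623 reads in siControl and 1999 and 1954 in siALKBH5. ADRM1, a ubiquitin receptor of the proteasome, had 1170 and 1339 reads in siControl and 1695 and 1511 in siALKBH5 (log2 fold change 0.31 ± 0.046, adjusted p = 1.69e-06), while AL354836.1 within it had 133 and 150 against 100 and 95 (-0.58 ± 0.16, adjusted p = 0.00347). SPINT1, an inhibitor of membrane serine proteases of epithelia, rose by 0.16 ± 0.024 and SPINT1-AS1 fell by 0.53 ± 0.12 on the log2 scale (adjusted p = 1.23e-06 and 0.000692). PAXIP1, a gene of DNA repair and histone methylation complexes, rose by 0.34 ± 0.11 (adjusted p = 0.0104) and PAXIP1-AS2 had 105 and 146 reads in siControl and 87 and 92 in siALKBH5 (-0.52 ± 0.17, adjusted p = 0.0149). The call of PAXIP1-AS2 was lost without siControl replicate 2 (-0.35) and without siALKBH5 replicate 1 (-0.39). The reverse pattern was seen once, in AC004943.2, where the transcription factor gene ZFHX3 fell from 574 and 632 reads to 505 and 449 (-0.38 ± 0.075, adjusted p = 0.000113). AC004943.2 passed the count minimum only through siALKBH5.

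In 8 pairs both genes moved the same way, 3 up and 5 down. PRR11, a gene of the cell division programme, had 599 and 673 reads in siControl and 1280 and 1060 in siALKBH5 (log2 fold change 0.84 ± 0.061, edgeR adjusted p = 3.12e-13), beside 0.78 for AC099850.3, of whose exonic bases 69.8% lie in PRR11 introns. TMPO, which encodes lamina-associated polypeptides, rose by 0.23 and TMPO-AS1 by 0.69, and the scavenger decapping enzyme DCPS rose by 0.32 and GSEC by 0.40. Among the falling pairs, FLG, the filaggrin gene of the cornified layer, had 518 and 504 reads in siControl and 403 and 346 in siALKBH5 (-0.49 ± 0.086, adjusted p = 2.22e-05), and FLG-AS1 had 179 and 181 against 139 and 124 (-0.50 ± 0.14, adjusted p = 0.00469). Simple epithelial keratin KRT7 had a log2 fold change of -0.30 and KRT7-AS of -0.47. The translation inhibitor PDCD4 had -0.43 and PDCD4-AS1 -0.46, the glycosyltransferase GALNT7 had -0.38 and AC105285.1 -0.38, and the lysosomal protease CTSD had -0.21 and AC068580.3 -0.61. Partner introns held 83.3% of the exonic bases of KRT7-AS and 75.5% of those of AC068580.3, genes at 1.29% and 0.960% of their partners per length, and a part of partner reads in these values was not tested. Without siALKBH5 replicate 2 KRT7-AS was not called (-0.43). AC105285.1 was not called without siControl replicate 1 (-0.31) or siALKBH5 replicate 1 (-0.33), and PDCD4-AS1 not without siControl replicate 1 (-0.41), siControl replicate 2 (-0.51) or siALKBH5 replicate 1 (-0.31).

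To ask whether antisense and sense RNA changed unequally within a library, the log2 ratio of their reads was tested with limma over all 573 pairs of antisense and coding genes. Of the 133 member pairs, 4 ratios rose and 16 fell, while percent called over the 573 pairs was 2.62% and 4.54%. The 573 pairs include the member pairs and antisense genes under the count minimum, where a change is harder to call. These shares were not matched for read number, and a part of read number in the difference was not tested. The members' median change of the ratio was -0.07 and that of all pairs -0.08. Reads of UNC5B-AS1 were 24.9% and 23.9% of those of UNC5B in siControl and 13.5% and 12.1% in siALKBH5 (log2 change -0.94 ± 0.047 SE). PSMA3-AS1 had 30.3% and 34.9% of the reads of PSMA3 in siControl and 18.5% and 17.9% in siALKBH5 (-0.84 ± 0.092, limma adjusted p = 7.3e-17). AL354836.1 went from 11.4% and 11.2% of ADRM1 to 5.93% and 6.32% (-0.89 ± 0.18, adjusted p = 4.86e-05), and SPINT1-AS1 from 3.64% and 2.90% of SPINT1 to 2.02% in siALKBH5 replicate 1 and nearly the same in replicate 2 (-0.69 ± 0.12, adjusted p = 9.88e-07). AC004943.2 went the other way, from 7.40% and 5.14% of ZFHX3 to 15.5% and 15.9% (1.35 ± 0.26, adjusted p = 3.56e-05). ELF3-AS1 did not pass the test alone (log2 fold change -0.07, edgeR adjusted p = 0.381) while its main partner RNPEP, an aminopeptidase, rose by 0.24. The ratio to RNPEP fell from 26.2% in both siControl libraries to 20.9% and 21.3%. ELF3-AS1 also overlaps ELF3 over 2519 bases, and ELF3 had the same log2 fold change of -0.07 (edgeR adjusted p = 0.0205). The ratio given here is the one to RNPEP only.

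These 6 ratios stayed called whichever library was left out, and the other 14 were lost without at least 1 library. The member pairs called numbered 15 without siControl replicate 1, 10 without siControl replicate 2, 9 without siALKBH5 replicate 1 and 8 without siALKBH5 replicate 2. Among those 14 were LINC00893 to CXorf40A (-1.28 ± 0.28), SLC25A25-AS1 to SLC25A25 (-1.04 ± 0.22), DLX6-AS1 to DLX6 (-0.98 ± 0.33) and PAXIP1-AS2 to PAXIP1 (-0.85 ± 0.21). The rises of AC010503.4 to DENND1C (0.43 ± 0.14), AL391422.4 to PXDC1 (0.52 ± 0.15) and ZBED5-AS1 to ZBED5 (0.54 ± 0.14) came with partners that fell by 0.42, 0.23 and 0.38, while the 3 antisense genes themselves did not pass the test (log2 fold change 0.01, 0.29 and 0.16). The limma p-values rest on a spread taken from a trend over all pairs. With the spread estimated without that trend limma called 0 of the 133 ratios (smallest adjusted p = 0.173), and 15 had an unadjusted p under 0.05, 12 of them among the 20 called.

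**Figure D5:**
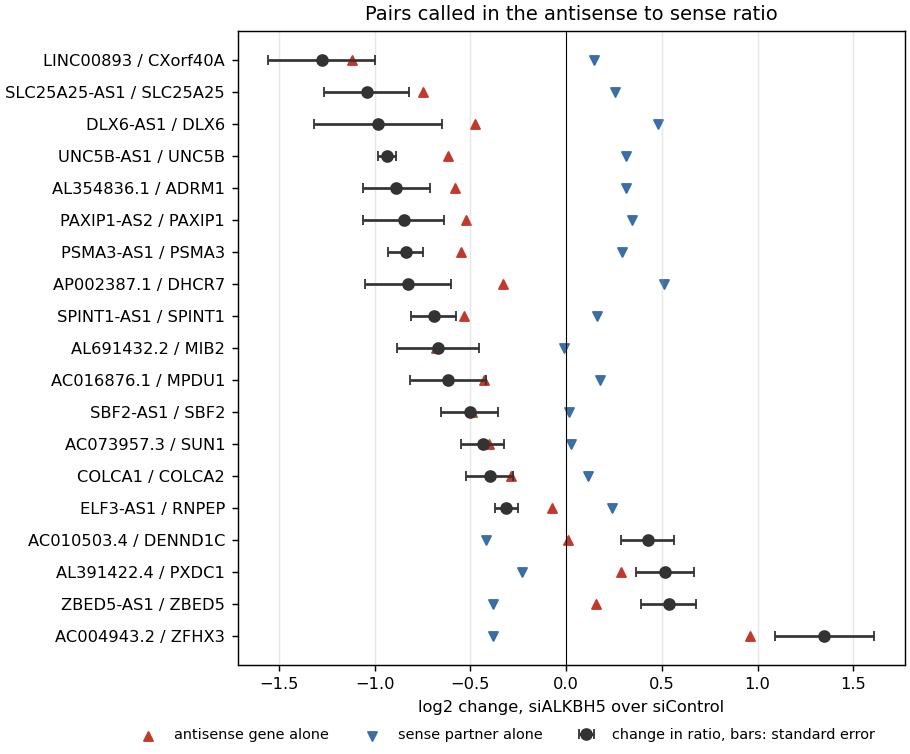
Log2 change of the antisense to sense read ratio (black, bars: SE) for 19 of the 20 member pairs called by limma, with the log2 fold changes of the antisense gene (red) and its partner (blue) alone. The 15 pairs at the top had a lower ratio in siALKBH5, from -1.28 for LINC00893 to -0.31 for ELF3-AS1.

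How the genes lie to each other was compared next. Head to head pairs share the region of their starts, tail to tail pairs overlap at their ends, and an embedded or containing antisense gene lies within or around its partner. Of 62 head to head antisense genes 4 were higher and 9 lower, of 38 tail to tail 2 and 6, of 33 embedded 3 and 7, and of 15 containing 0 and 1. The shares were 6.45% and 14.5% head to head, 5.26% and 15.8% tail to tail and 9.09% and 21.2% embedded, beside 6.43% and 15.2% of all members and percent called of 19.3% and 17.3% over all genes. Median log2 fold changes were -0.06, -0.07, -0.22 and 0.04 in that order. The partners of tail to tail genes were 10 higher and 4 lower of 33 tested, and those of head to head genes 8 and 10 of 59. The Pearson correlation of antisense and partner was r = 0.18 over 59 head to head pairs, -0.28 over 33 tail to tail, 0.35 over 31 embedded and 0.27 over 10 containing pairs. Spearman rho was 0.13, -0.11, 0.30 and 0.24 in the same order. These values are given as a description only, and differences between these classes were not tested. Where partner introns held at least 50% of the antisense exonic bases, 5 of 52 members were higher and 9 lower, and r with the partner was 0.10 over 48 pairs. Of the 96 other members with a partner, 4 were higher and 14 lower, and r was 0.12 over 85 pairs.

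The 23 members with no coding gene across from them included 2 called higher and 3 called lower, a share of 21.7% against 21.6% of all members and 36.6% of all genes. In 19 of them the nearest coding start on the other strand was within 2000 bases and ran the other way. Of the rising members, LINC01137 lay beside ZC3H12A, an RNase that degrades inflammatory messages, which rose (log2 fold change 0.39 ± 0.084, edgeR adjusted p = 0.000362). UBL7-AS1 lay 83 bases from UBL7, which rose too (0.21 ± 0.051, adjusted p = 0.00137). MAN1B1-DT fell beside MAN1B1, a mannosidase of the endoplasmic reticulum, which had a log2 fold change of -0.03 (adjusted p = 0.547). The nearest coding start to the falling AC011374.1 was that of SPARC, a matrix protein gene 34890 bases away, which rose by 0.20 (edgeR adjusted p = 0.0358), and that to MINCR was ZNF696, at -0.24 (adjusted p = 0.323). AL139289.2 had a log2 fold change of 0.03 (adjusted p = 0.929), 297 bases from the mitotic activator CDC20, which rose by 0.81 (adjusted p = 1.06e-19).

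Several members belong to known loci. All 5 members of HOX clusters had negative log2 fold changes, as did 105 of the 171 members. Of the 5, 2 were called (36.6% of all genes were), both lower, HOTAIRM1 (-0.39 ± 0.12, 235 and 264 reads against 206 and 186) and HOXA-AS2 (-0.28, edgeR adjusted p = 0.0256). HOXA-AS2 had 368 and 416 reads in siControl and 393 and 273 in siALKBH5, and its call was lost without siControl replicate 1 (-0.29), siControl replicate 2 (-0.27) or siALKBH5 replicate 2 (-0.13). HOXD-AS2 (-0.58, adjusted p = 0.0576), HOTAIR (-0.11) and HOXC13-AS (-0.04) did not pass. HOTAIR turned to 0.087 without siControl replicate 2, and HOXC13-AS to 0.10 without siControl replicate 1 and 0.01 without siALKBH5 replicate 2. None of the 4 members opposite a ZNF gene passed, with log2 fold changes from -0.15 for ZNF436-AS1 to 0.18 for ZNF503-AS2. Of a list of 23 antisense RNAs studied in tumours or other settings, which left out HOTAIR, DLX6-AS1 and SBF2-AS1, 6 were members, and besides TMPO-AS1 and PSMA3-AS1 these were FGD5-AS1 (-0.06), NNT-AS1 (0.05), THAP9-AS1 (-0.14) and LOXL1-AS1 (0.16), which did not pass. LOXL1, a lysyl oxidase of elastic fibres, itself rose from 140 and 158 reads to 250 and 198 (0.54 ± 0.13, adjusted p = 0.00106).

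Genes of nuclear RNA surveillance and genes that bind, edit or sense double-stranded RNA were examined from lists. Whether they act on the members was not tested. Of 24 genes of nuclear RNA surveillance, the exosome, its adaptors and the cap complex, 1 was higher and 8 lower in siALKBH5, a share called of 37.5% against 36.6% of all genes (4.17% and 33.3% against 19.3% higher and 17.3% lower). The 8 lower became 5 without siControl replicate 1, 3 without siControl replicate 2 and 4 without siALKBH5 replicate 1. The exosome nuclease DIS3 had 1006 and 1096 reads in siControl and 940 and 804 in siALKBH5 (log2 fold change -0.31 ± 0.057, edgeR adjusted p = 3.92e-05), the exosome cofactor C1D had -0.58 ± 0.11 (adjusted p = 0.000138), the poly-A binding protein PABPN1 had -0.37 ± 0.069 (adjusted p = 5.46e-05), and EXOSC10 rose by 0.15. Of 20 genes that bind, edit or sense double-stranded RNA, 4 were higher and 5 lower, near the same 19.3% and 17.3% for a list of this size, and the 5 lower became 2 without siControl replicate 2 and 3 without siALKBH5 replicate 2. OAS3, an interferon-induced synthetase that senses double-stranded RNA, rose by 0.48 ± 0.051 (adjusted p = 1.78e-09), ILF2 by 0.27, STAU1 by 0.15 and the editing enzyme ADAR by 0.08. TLR3 had -0.45, DDX58 -0.35, DICER1 -0.27 and TARBP2 -0.23. DESeq2 called 0 higher and 3 lower in the surveillance list and 3 and 2 in the other. 1 member lies opposite a gene of these lists, AC009948.1 across PRKRA, with log2 fold changes of -0.38 (adjusted p = 0.219) and 0.05 (adjusted p = 0.722).

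At the count minimum, AC005229.4, AC009779.2 and TMPO-AS1 were the last members inside, with mean counts of up to 50.8, and DICER1-AS1, AC092535.4 and AC023043.1 the first antisense genes outside, with 48.8 counts or just above.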

How the data were processed

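RNA-seq of 4 HaCaT libraries, 2 siControl and 2 siALKBH5, was used. The authors deposited 2 tables, each with the raw counts per gene, not normalized, and the FPKM of 1 library per group. The deposited FPKM were not used. The tables also hold fold changes and p-values of 1 library against 1, which were not used. The submitters' processing notes name CASAVA, HISAT2 2.0.5, featureCounts 1.5.0-p3, DESeq2 1.20.0 and hg38. The listed coordinates match GENCODE 29, and 0 columns were left unmapped.

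Groups were taken from the sample labels. Counts were scaled over all genes with TMM, filtered with filterByExpr (15075 genes) and compared with the quasi-likelihood test of edgeR 4.0.16 (R 4.3.3, Benjamini-Hochberg over all genes, threshold 0.05). Standard errors come from the same model. The main partner was the coding gene with the longest overlap on the other strand. Log2 ratios of reads, each with 0.5 reads added, were tested with limma 3.58.1, whose variance trend follows the depth of each pair. The common biological coefficient of variation was 0.0253. Library totals of 16017502 to 18837807 counts limit the precision, and a mean of 50 reads carries a large counting error. Libraries of 1 group differed beyond counting noise (chi-square per degree of freedom 1.74 and 1.85), so all were counted. In simulated data edgeR recovered 98 of 100 genes at a log2 change of 1 and 71 of 100 at 0.5 among 15031 genes, with 7 false calls over both sizes, and limma 16 of 17 and 5 of 17 ratios among 543 pairs, with 2 false calls. The simulated spread was the same for every gene, and far fewer genes changed than were called in the data. Most changed genes were no members, so the edgeR rates are not those of the members.

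Named were ALKBH5, the 10 called members with the largest rise and fall, the 8 with the highest RPKM, the 5 largest called ratios in each direction, the 5 largest opposite pairs, members around the count minimum, members from a list of studied antisense RNAs, and the partners of all these. COLCA1, SPINT1-AS1, ELF3-AS1, ELF3, NR2C2, AL139289.2 and the remaining pairs with both genes called were chosen after their values were seen. So were the neighbours of members without a partner, the HOX and ZNF members, the single markers and the genes named from the lists. The members and lists were chosen with earlier results of these data known. Alternatives were DESeq2 1.42.0, its size factors, library size only, other filters, other count minimums, a fold threshold, a replicate block and each library left out. Values of 1 sense partner and 1 gene of the lists are not reported here, although both count in the totals.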

Additional observations from a re-analysis of the deposited data

How the results depend on the processing

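With 2 libraries per group and few reads per antisense gene, small changes could be missed, and calls near the threshold depended on single libraries and on the tool. DESeq2 called 5 antisense members higher and 6 lower in place of 11 and 26, and 0 and 3 surveillance genes and 3 and 2 double-stranded RNA genes in place of 1 and 8 and of 4 and 5. Asking for a log2 fold change of at least 1 as well left 0 higher and 1 lower member and 0 higher and 2 lower partners. A minimum of 25 counts for membership gave 20 members higher and 34 lower of 346 with a median of -0.054, and a minimum of 100 gave 5 higher and 18 lower of 77. With library size only the median was -0.10 in place of -0.08, with 8 members higher and 29 lower, and with no filter 4 surveillance genes were lower. Without the variance trend limma called 0 ratios higher and 0 lower in place of 4 and 16.

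Over the fits that left out 1 library, 4 to 14 members were higher and 19 to 24 lower, with a median from -0.093 to -0.053. The partners ranged from 20 to 22 higher and 19 to 25 lower, the ratios from 1 to 3 higher and 7 to 12 lower, the surveillance genes from 0 to 1 higher and 3 to 7 lower, and the double-stranded RNA genes from 3 to 4 higher and 2 to 6 lower. The sign turned for 9 genes named by the rule that did not pass the test, whose log2 fold changes ranged from -0.023 to 0.041 (AC010503.4, also -0.014 with library size only), -0.17 to 0.10 (HOXC13-AS), -0.20 to 0.16 (AC005229.4), -0.016 to 0.32 (LOXL1-AS1), -0.0078 to 0.24 (ARMC5), -0.039 to 0.022 (MIB2), -0.022 to 0.092 (MED1), -0.12 to 0.032 (CUL1) and -0.27 to 0.20 (THAP9). It also turned for HOTAIR (-0.27 to 0.087), AL139289.2 (-0.20 to 0.29) and ZNF503-AS2 (-0.24 to 0.71), which did not pass either. No called member changed sign in any of these alternatives.

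The replicate numbers are not stated to mark a shared culture or day, and deviations of same-numbered libraries from their group means had r = 0.07 over 13626 genes. With the replicate number as a block 12 members were higher and 29 lower, and 6 ratios higher and 19 lower, and all 37 calls of the members were kept.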

Other observations

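Antisense genes under the count minimum were tested in the same fit. Of 585 such genes that passed the expression filter, 20 were higher and 28 lower in siALKBH5 by edgeR, with a median log2 fold change of -0.01. The shares were 3.42% and 4.79%, against 19.3% and 17.3% of all genes tested. Of these calls 37 had a log2 change of at least 1 in size, 6.32% of the 585 against 2.92% of all genes. At so few reads a small change cannot pass the test, so the sizes of these calls are not comparable with those of the members.

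Of the 171 members, 36 overlap more than 1 coding gene, and the pairs above use only the longest overlap. SDCBP2-AS1 overlaps FKBP1A, a target of rapamycin and FK506, which had a log2 fold change of 0.16 (edgeR adjusted p = 2.42e-05), and SDCBP2, which had -0.41 (adjusted p = 4.38e-06). CA3-AS1 overlaps the carbonic anhydrase gene CA2, which rose by 0.44 (adjusted p = 3.03e-14), and HOXD-AS2 overlaps HOXD9, at -0.63 (adjusted p = 0.00331). These genes were named after their values were seen.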
